A study of Mus musculus with 8 samples.

Results

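The libraries described here are the 4 RNA-sequencing libraries of the J1 line of mouse embryonic stem cells, out of 8 in the series. They were chosen by their labels alone: J1 with DAXX intact and J1 with DAXX knocked out (DAXX-KO), each in regular medium or in medium with 2i and vitamin C for 72 hours. The 2i are PD0325901, an inhibitor of the kinase MEK, at 1 µM, and CHIR99021, an inhibitor of the kinase GSK3b, at 3 µM. Vitamin C was L-ascorbic acid 2-phosphate at 100 µg/ml. "2i" below stands for all 3 agents, and the agents were not given separately. The labels give the genotype WT to all 4 J1 libraries, also those of the DAXX knockout, so the DNA methyltransferase genes are taken as intact. Whether the DAXX-KO line is 1 clone is not stated. The other 4 libraries are the same design in TKO cells, which lack the DNA methyltransferases. They serve here for the filters on low values, for the estimate of spread and for 1 test of a difference. Each group is 1 library, so no value below has a replicate of its own group.

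In embryonic stem cells 2i is known to lower the activity of the de novo and maintenance DNA methylation machinery, and vitamin C is a cofactor of the TET enzymes that oxidise methylated cytosine. Endogenous retroviruses (ERVs) are former viral insertions that cells keep silent with DNA methylation and with histone H3 lysine 9 methylation, and the histone chaperone DAXX acts with ATRX at some of them. The comparison asks what the switch of medium does to repeat RNA where DNA methylation can still be removed. DNA methylation itself was not measured in these files.

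RNA was cytoplasmic and captured on oligo-dT beads. Library totals recovered from the repeat table were 76.8 M reads for J1 regular, 67.4 M for J1 2i, 79.2 M for J1 DAXX-KO regular and 91.8 M for J1 DAXX-KO 2i. Levels of families are given in RPM, reads per M of the total, and a floor of 3 reads equals 0.0327 to 0.0445 RPM in these libraries (counting error only). The table lists 17857 elements of 65 families, and 44 families and 11322 elements passed the filters on low values, taken over all 8 libraries. The shortest listed element is 5001 bp, so shorter repeat copies are not covered. The tests treat each line as a pair of media, and their spread comes from how far the 2 J1 pairs, and the 2 TKO pairs, differ from each other. The J1 and J1 DAXX-KO pairs are therefore averaged, and a difference between them counts as noise. With 4 J1 libraries in 4 groups that difference could not be tested. The tests also draw the spread of each family or element toward that of the others, so a p-value does not rest on its own pairs alone. "Called" means an adjusted p under 0.05 in edgeR's quasi-likelihood test with Benjamini-Hochberg adjustment over all families or all elements. The assembled transcripts carry no gene names, so Daxx, the Dnmt genes and markers of pluripotent or feeder cells were not examined, and the labels could not be checked against them.

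In 2i medium 6 families were called, 2 higher and 4 lower. MERVL-int, MERVL_2A-int and ERVL-B4-int, all of the ERVL type, fell 5.78-fold to 5.96-fold, and IAPEY3-int, of the IAP group, fell 7.11-fold. MMERGLN-int, of the ERV1 type, rose 5.22-fold and IAPEy-int, another IAP family, rose 3.14-fold. The called families were 4.55% of those tested in the higher direction and 9.09% in the lower direction. All 6 calls were lost with TMM or median-of-ratios scaling (10 and 11 families at an unadjusted p under 0.05), and when any 1 of the 4 J1 libraries was left out (3 to 6 families). The fitted log2 changes moved little with the scalings, under TMM to −2.56 for MERVL-int, −2.82 for IAPEY3-int and 2.39 for MMERGLN-int. DESeq2 called 8 families, among them these 6. When a library is left out, its pair gives no value, and the fitted change is that of the other J1 line. Of 17 alternatives (16 for ERVL-B4-int and IAPEy-int, which a 10 times higher minimum drops), 11 kept MMERGLN-int past the threshold, 10 IAPEY3-int, 9 each of the 3 ERVL families and 7 IAPEy-int, each with its direction kept in all of them. With a J1 library left out the direction could not turn, as all 6 had the same sign in both pairs.

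**Figure D1:**
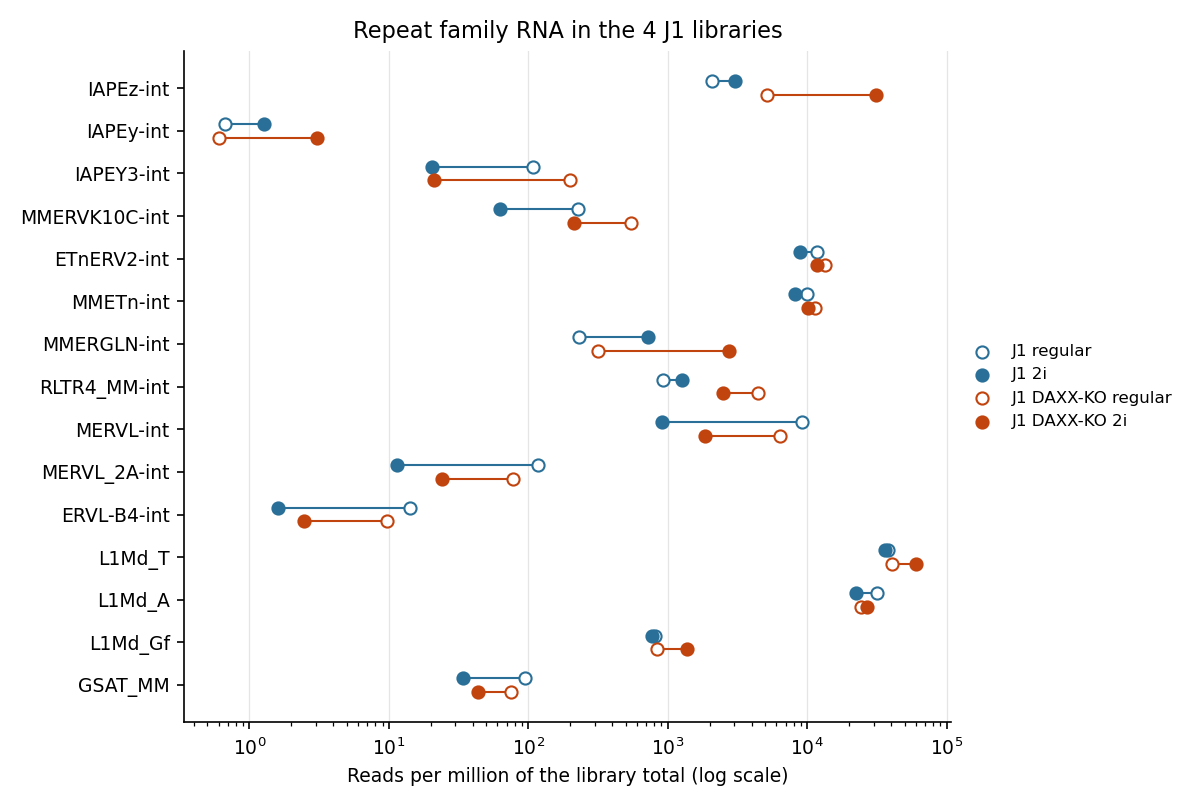
Reads per M of the library total (RPM) on a log axis for 15 repeat families, with open points for regular medium, filled points for 2i plus vitamin C, and a line joining the media of each line (blue J1, orange J1 DAXX-KO). The filled points lie left of the open points in both lines for the 3 ERVL families, IAPEY3-int, MMERVK10C-int and GSAT_MM, and by less for ETnERV2-int and MMETn-int. They lie right of the open points in both lines for IAPEz-int, IAPEy-int and MMERGLN-int.

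MERVL-int is the internal part of a retrovirus that is transcribed at the 2-cell stage of the embryo and in the rare embryonic stem cells that resemble it. It stood at 9185 RPM in regular and 902 RPM in 2i medium in J1, and 6417 and 1842 RPM in J1 DAXX-KO. Both 2i libraries lay below both regular libraries. The ratio of 2i to regular was 0.0982 in J1 and 0.287 in J1 DAXX-KO, and the fitted log2 change was −2.57 ± 0.67 (SE, edgeR adjusted p = 0.0390). In bulk RNA, fewer cells that express MERVL and less MERVL RNA in each cell cannot be told apart. MERVL_2A-int, a related internal sequence, had 118, 11.5, 77.7 and 23.9 RPM in the same order of libraries, a log2 change of −2.53 ± 0.65 (edgeR adjusted p = 0.0390). ERVL-B4-int, a family with 1 listed element, had 14.1, 1.60, 9.63 and 2.45 RPM and a log2 change of −2.55 ± 0.57 (edgeR adjusted p = 0.0314). In all 3 families J1 2i was the lowest library and J1 regular the highest.

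Over all elements 786 were called higher, 6.94% of 11322, and 699 lower, 6.17%. Of the 786, 697 were IAPEz-int and 49 MMERGLN-int copies. Of the 699, 571 were MERVL-int and 68 MMERVK10C-int copies. Of the 1485 called, 1437 had the same sign in both pairs. The test favours this, since a difference between the pairs counts as noise. Across elements the log2 ratios of the 2 pairs had a Pearson correlation of 0.74, a description over copies that share sequence and library. Within groups it was lower: 0.33 over the 9456 LINE1 elements of the young L1Md families, 0.40 within IAPEz-int and 0.55 within MERVL-int. The counts of called elements depend on the scaling and on the DAXX-KO pair. With TMM, median-of-ratios or LINE1 scaling edgeR called none (2224, 2477 and 2484 at an unadjusted p under 0.05), and without J1 DAXX-KO regular or without J1 DAXX-KO 2i it called none either (1358 and 1186). DESeq2 called 648 higher and 532 lower. Without 1 TKO library edgeR called 143 to 264 elements higher and 635 to 661 lower. Without J1 regular the calls were 998 higher and 15 lower, without J1 2i 1171 and 15, and in the 4 J1 libraries alone 147 and 667.

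The fall was spread over the copies of MERVL-int. Of 575 elements tested, 571 were called lower and none higher, beside 6.17% of all elements called lower, and 575 of 575 were lower in both pairs. Without J1 regular or without J1 2i 1 of the 575 was called (90 and 55 at an unadjusted p under 0.05), and without 1 TKO library 551 to 561 were. Without the line terms none was called (560). Over all 11322 elements 17.7% were lower in both pairs. The median log2 ratio of its elements was −3.51 in J1 and −1.84 in J1 DAXX-KO, beside medians of −0.19 and 0.34 over all elements. The 10 copies with most reads held 2.73% of the family's reads in J1 regular and 9.0% in J1 2i, and 2.89% and 4.87% in J1 DAXX-KO. The copy with the largest called fall lay on chromosome 8 (mm9, 59223063 to 59228417), with 4.80, 0.177, 4.07 and 0.706 RPKM (reads per kilobase and per M) and a log2 change of −3.59. A copy on chromosome 13 (mm9, 65778860 to 65784175), singled out after its values were seen, had the highest RPKM of the family in J1 regular. It went from 6.42 to 1.99 RPKM in J1 and from 3.52 to 2.41 in J1 DAXX-KO, and was not called (edgeR adjusted p = 0.108). All 13 tested copies of MERVL_2A-int were called lower.

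IAP elements are the intracisternal A-particle retroviruses, young and mobile in the mouse. IAPEz-int had 2061 RPM in regular and 3029 RPM in 2i medium in J1, and 5130 and 31233 RPM in J1 DAXX-KO. The last library stands far above the other 3, and the regular and 2i libraries overlap. The ratio of 2i to regular was 1.47 in J1 and 6.09 in J1 DAXX-KO. As a family it was not called (fitted fold 2.99, log2 1.58 ± 0.55, edgeR adjusted p = 0.0912), and its log2 change was 0.56 without the DAXX-KO pair of media and 2.61 without the J1 pair.

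Among single IAPEz-int copies, 697 of 804 tested were called higher and none lower, beside 6.94% of all elements called higher. In both pairs 740 of 804 were higher, beside 28.8% of all elements. The number of IAPEz-int copies called higher was 85 in the 4 J1 libraries alone, between 78 and 197 without 1 TKO library, and 589 in DESeq2. It was 0 under each of the 3 scalings (695 to 742 copies at an unadjusted p under 0.05), without the line terms (618) and without either J1 DAXX-KO library (98 and 138). The median log2 ratio was 0.55 in J1 and 2.63 in J1 DAXX-KO. Its ratio was larger in J1 DAXX-KO than in J1 for 804 of 804 copies, beside 92.0% of all elements. Reads were shared over many copies. Its 10 strongest copies held 6.61% of the reads in regular and 5.87% in 2i medium in J1, and 4.70% and 4.40% in J1 DAXX-KO. The median copy had 0.281, 0.429, 0.822 and 5.21 RPKM in the same order. The copy with the highest RPKM, on chromosome 4 (mm9, 116865082 to 116871463) and singled out after its values were seen, had 0.434, 0.616, 3.92 and 27.7 RPKM. Copies under 6000 bp, 13 of 18 called higher, had median log2 ratios of 0.34 and 2.45, and the 786 longer ones, 684 called higher, had 0.56 and 2.63.

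IAPEY3-int, another IAP family, fell in 2i. Its level was 108 RPM in regular and 20.5 RPM in 2i medium in J1, and 200 and 20.98 RPM in J1 DAXX-KO. The 2i libraries were close to each other and both lay below the regular ones. The ratios were 0.189 and 0.105, and the log2 change was −2.83 ± 0.40 (edgeR adjusted p = 0.0047). Of 13 copies tested, 12 were called lower, beside 6.17% of all elements, and 13 were lower in both pairs, beside 17.7%.

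Most IAPEY3-int reads came from 7 copies on chromosome 12 (mm9, between 19055759 and 25049607), a group singled out after its values were seen. These copies held 81.8% of the family's reads in regular and 47.2% in 2i medium in J1, and 85.7% and 62.8% in J1 DAXX-KO. They summed to 88.6, 9.66, 172 and 13.2 RPM, while the other placed copies summed to 19.7, 10.8, 28.7 and 7.81 RPM. Both groups of copies were lower in 2i, the chromosome 12 copies more so. The largest called fall of the elements reported here was a chromosome 12 copy (mm9, 23774611 to 23781935) with 2.62, 0.231, 5.41 and 0.321 RPKM and a log2 change of −3.79. The second largest was another (mm9, 24099405 to 24106729) with 2.80, 0.274, 5.6 and 0.366 RPKM and a change of −3.65. The copies share sequence and are not independent of each other.

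IAPEy-int had few reads, 51 in regular and 86 in 2i medium in J1, and 48 and 280 in J1 DAXX-KO, over 16 placed copies. That is 0.66, 1.28, 0.61 and 3.05 RPM, with both 2i libraries above both regular ones. The log2 change was 1.65 ± 0.44 (edgeR adjusted p = 0.0390). IAP-d-int, which falls outside the rule for named families and was looked at after its values were seen, had 2.12, 4.05, 2.18 and 6.75 RPM (edgeR adjusted p = 0.0517). The largest fitted rise of the called elements reported here was a copy of IAP-d-int on chromosome 11 (mm9, 61205941 to 61211060) with 1, 2, 0 and 60 reads, so it rests on J1 DAXX-KO 2i alone. Its RPKM were 0.0025, 0.0058, 0 and 0.128 in the same order. TKO regular had 0.0158, TKO 2i 0.236, TKO DAXX-KO regular 0.414 and TKO DAXX-KO 2i 0.272. Its mean for the filter was taken over all 8 libraries.

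MMERGLN-int is a gammaretrovirus of the ERV1 type. It had 230 RPM in regular and 717 RPM in 2i medium in J1, and 316 and 2761 RPM in J1 DAXX-KO. Both 2i libraries lay above both regular ones, and J1 DAXX-KO 2i was the highest. The ratios were 3.12 and 8.73, and the log2 change was 2.38 ± 0.46 (edgeR adjusted p = 0.0187). Of 56 copies tested, 49 were called higher and 1 lower, beside 6.94% and 6.17% of all elements, with median log2 ratios of 1.65 in J1 and 3.16 in J1 DAXX-KO. The 10 strongest copies held 37.4%, 39.1%, 40.2% and 44.3% of its reads, in the order above. The strongest, on chromosome 10 (mm9, 26647207 to 26654754) and singled out after its values were seen, had 0.964, 3.49, 1.86 and 30.04 RPKM and a log2 change of 2.94.

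RLTR4_MM-int, also of the ERV1 type and related to murine leukaemia virus, did not move one way. It had 921 RPM in regular and 1276 RPM in 2i medium in J1, and 4466 and 2471 RPM in J1 DAXX-KO. The level was thus 1.38 times as high in 2i in J1 and 0.553 times in J1 DAXX-KO, and the family was not called (log2 −0.19, edgeR adjusted p = 0.964). Of 45 copies tested, 33 had a ratio above 1 in J1 and 21 in J1 DAXX-KO, beside 3506 and 9080 of all 11322 elements. The larger ratio was in J1 for 42 copies, beside 907 of all elements, and 1 copy was called higher. The median log2 ratio of the RLTR4_MM-int copies was 0.58 in J1 and −0.35 in J1 DAXX-KO. Its 10 strongest copies held 62.3% of the reads in J1 DAXX-KO regular and 47.1% in J1 DAXX-KO 2i. The copy with the highest RPKM, on chromosome 2 (mm9, 15942862 to 15950422) and singled out after its values were seen, had 7.60, 2.86, 77.9 and 30.9 RPKM, lower in 2i in both lines. RLTR6-int, the third named ERV1 family, had ratios of 0.826 and 1.09. Over the families classed here as ERV1, 51 of 133 tested elements were called higher and 5 lower, beside 6.94% and 6.17% of all elements. Of the 51, 49 were MMERGLN-int copies. MuLV-int was not put in this class, and 2 of its 4 tested elements were called lower and 0 higher.

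**Figure D2:**
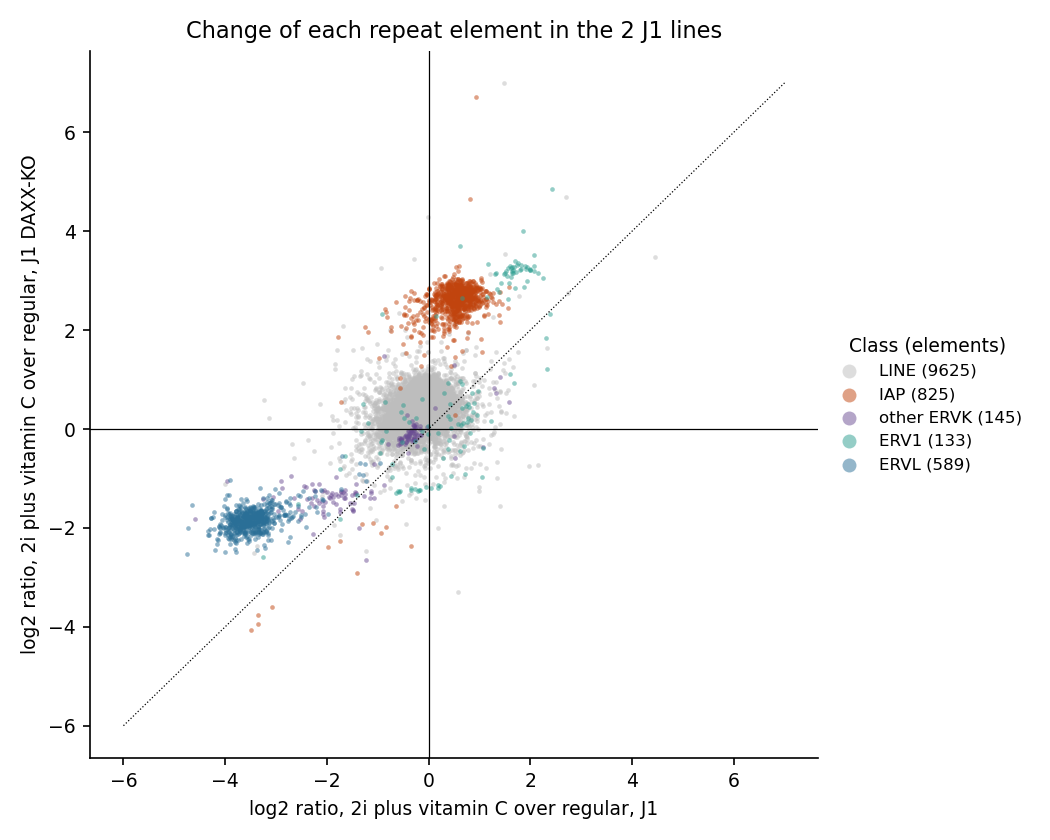
Each point is 1 tested repeat element, with the log2 ratio of 2i plus vitamin C to regular medium in J1 on the x axis and in J1 DAXX-KO on the y axis, coloured by class, and a dotted line where both are equal. Of 825 IAP elements 811 lie above the line (class medians 0.55 and 2.62), while the 13 IAPEY3-int copies lie below it at lower left. The ERVL elements form a cloud at lower left (medians −3.51 and −1.84), and the LINE elements lie around 0.

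Other ERVK families split. MMERVK10C-int, a family of the ERVK type that is known to be held down by histone H3 lysine 9 methylation in embryonic stem cells, had 225 RPM in regular and 62.4 RPM in 2i medium in J1, and 547 and 213 RPM in J1 DAXX-KO. J1 2i was the lowest, while J1 regular and J1 DAXX-KO 2i were close, so the 2i libraries lay only just below the regular ones. The ratios were 0.277 and 0.390 and the family narrowly missed the threshold (log2 −1.61 ± 0.47, edgeR adjusted p = 0.0517). In the 4 J1 libraries alone its adjusted p in edgeR was 0.0381, and over all alternatives it ranged from 0.0252 to 0.608. Of its 75 tested copies 68 were called lower and none higher, beside 6.17% of all elements called lower, and 73 were lower in both pairs, beside 17.7%. Without 1 TKO library 36 to 66 of these copies were called lower, and without J1 regular or without J1 2i 1. ETnERV2-int, the internal part of early transposons and related elements, had 11784, 8853, 13384 and 11717 RPM and ratios of 0.751 and 0.875 (log2 −0.30, edgeR adjusted p = 0.925). MMETn-int, of the same group, had 9924, 8225, 11381 and 10103 RPM and ratios of 0.829 and 0.888 (log2 −0.22, edgeR adjusted p = 0.925). ETnERV-int had ratios of 0.808 and 0.987. ETnERV3-int, which lies below the level for naming and was looked at after its values were seen, had ratios of 1.09 and 1.33 at 3.87 to 5.15 RPM and was not called. Of 51 tested ETnERV2-int copies, 2 were called higher and none lower.

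LINE1 elements move without a virus-like stage, and the L1Md families classed here as young include the ones still active in the mouse. L1Md_T had 38055 RPM in regular and 36410 RPM in 2i medium in J1, and 40848 and 60037 RPM in J1 DAXX-KO. The first 3 libraries were close and the last was higher, with ratios of 0.957 and 1.47 (log2 0.25, edgeR adjusted p = 0.925). L1Md_A had 31885, 22463, 24440 and 26667 RPM, with J1 regular the highest and ratios of 0.704 and 1.09 (log2 −0.19, edgeR adjusted p = 0.964). L1Md_Gf had 814, 773, 831 and 1379 RPM and ratios of 0.950 and 1.66. L1Md_F, L1Md_F2, L1Md_F3, L1_Mus1, L1_Mus2, L1_Mus3 and Lx were not called either. Over these 10 LINE families the ratio was between 0.704 and 0.996 in J1 and between 1.09 and 1.66 in J1 DAXX-KO. The fitted change of L1Md_F had the opposite sign under TMM, and that of L1Md_F2 under scaling to LINE1 elements.

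Single LINE1 copies rarely passed the test. Of 9456 elements of the young L1Md families 23 (0.243%) were called higher and 25 (0.264%) lower, beside 6.94% and 6.17% of all elements. Most calls over all elements came from 2 families: 697 of 786 higher ones from IAPEz-int and 571 of 699 lower ones from MERVL-int. Of 4951 L1Md_T copies none was called higher and 4 lower. The median log2 ratio of the young L1Md elements was −0.20 in J1 and 0.33 in J1 DAXX-KO. These values are close to the medians over all elements, of which the young L1Md elements are the largest share. Of the 3 largest called rises, 2 were LINE copies. An L1Md_F copy on chromosome 11 (mm9, 16342795 to 16348262) had 3, 67, 10 and 135 reads, and its fitted log2 change was 3.93. An L1_Mus1 copy on chromosome 16 (mm9, 9231335 to 9237490) had 11, 65, 17 and 527 reads and a log2 change of 3.90. GSAT_MM, the major satellite of the pericentromere, rests on 1 placed element. It had 94.8, 33.9, 74.9 and 43.6 RPM, both 2i libraries below both regular ones, and was not called (log2 −1.13 ± 0.33, edgeR adjusted p = 0.0517).

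Summed over the listed elements, none under 5001 bp, repeat reads were 10.9% of the library total in J1 regular and 8.56% in J1 2i. They were 11.1% in J1 DAXX-KO regular and 15.2% in J1 DAXX-KO 2i. The sum was lower in 2i in J1 and higher in 2i in J1 DAXX-KO. LINE elements summed to 73783 and 62310 RPM in J1 and to 69226 and 91763 RPM in J1 DAXX-KO, ratios of 0.844 and 1.33. LTR elements, which comprise all ERVs here, summed to 34817 and 23293 RPM in J1 and to 42166 and 60646 RPM in J1 DAXX-KO, ratios of 0.669 and 1.44. Within the LTR elements the ERVL sum had ratios of 0.0982 and 0.287, and the IAP sum 1.41 and 5.86.

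**Figure D3:**
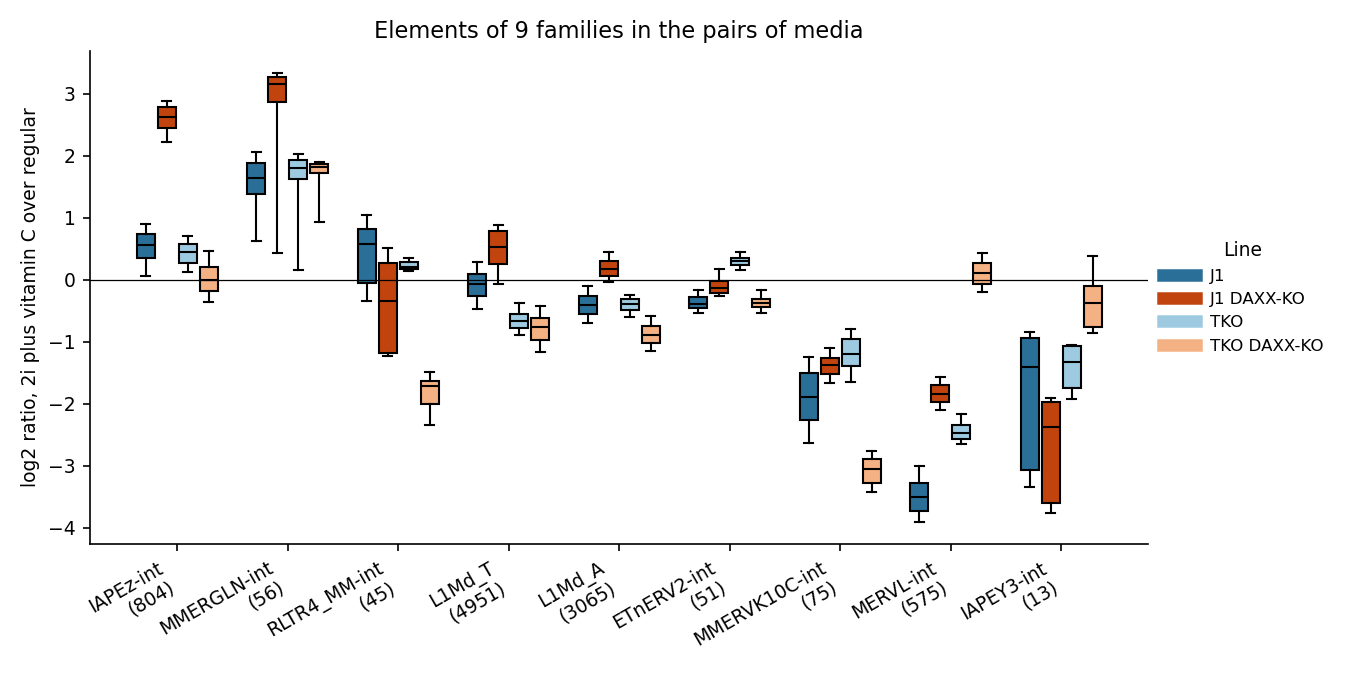
Log2 ratio of 2i plus vitamin C to regular medium for the tested elements of 9 families (number of elements in brackets) in the 4 lines; boxes span the quartiles, the bar is the median and whiskers run from the 10th to the 90th percentile. The IAPEz-int box of J1 DAXX-KO (median 2.63) lies above those of the other 3 lines, and the MERVL-int boxes lie below 0 in J1, J1 DAXX-KO and TKO but not in TKO DAXX-KO (median 0.10).

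To ask whether the response in J1 differs from that in cells without DNA methyltransferases, the medium effect of the TKO lines was set against that of the J1 lines in the same fit. No family was called for this difference, 0% of 44. At an unadjusted p under 0.05 there were 4 in edgeR, and DESeq2 called 1. MERVL-int had ratios of 0.189 in TKO and 1.08 in TKO DAXX-KO (difference log2 1.43, edgeR adjusted p = 0.431). IAPEz-int had 1.32 and 1.13 (difference log2 −1.29, edgeR adjusted p = 0.411). MMERGLN-int had 3.35 and 3.51 (difference log2 −0.61, edgeR adjusted p = 0.556), so it was higher in 2i in all 4 lines. IAPEY3-int had 0.332 and 0.680 (difference log2 1.76, edgeR adjusted p = 0.411).

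Among single elements 64 were called for the difference: 12 with a higher effect in TKO (0.106% of those tested) and 52 with a lower one (0.459%). The 52 held 19 of 804 IAPEz-int copies, 13 of 4951 L1Md_T copies and 11 of 939 L1Md_F2 copies. The 12 held 5 of 575 MERVL-int, 4 of 13 IAPEY3-int and 2 of 13 MERVL_2A-int copies. The 3 named falling copies were chosen for their change in the J1 lines, which is also part of this difference, so their values are given with no test. The IAPEY3-int copy at 23774611 had ratios of 0.0884 and 0.0595 in the J1 lines and 0.260 and 0.460 in the TKO lines. The MERVL-int copy on chromosome 8 had 0.0372 and 0.174 in the J1 lines and 0.195 and 1.52 in the TKO lines. None of the 64 remained under TMM, median-of-ratios or LINE1 scaling (603, 651 and 646 at an unadjusted p under 0.05), limma called none (2234) and DESeq2 called 2. TMM moved the median difference over all elements from −0.73 to −0.0040 on the log2 scale. Without J1 regular 3136 elements were called, 3128 of them lower in TKO, and without J1 2i 2614, 2606 of them lower. Without TKO regular 45 were called higher and 17 lower in TKO, and without TKO 2i 18 and 14. Without 1 of the J1 DAXX-KO or TKO DAXX-KO libraries none was called (169 to 1390 at an unadjusted p under 0.05).

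Beyond repeats, the files list transcripts assembled in each library, in FPKM (fragments per kilobase and per M). Of 41473 groups of loci, 10838 matched with 1 locus in each J1 library, and 10594 with a mean FPKM of at least 1 were tested with limma on log2(FPKM + 1), a scale that understates the change of low loci. At an adjusted p under 0.05 (Benjamini-Hochberg), 204 loci, 1.93%, were higher in 2i and 129, 1.22%, were lower. All 333 had the same sign in both pairs, which the test favours, since a difference between the pairs counts as noise. At least 2-fold in both pairs were 406 loci upward and 244 downward, a count with no test. The fit leaves 1 residual degree of freedom, and leaving out any J1 library left no call in a fit without the DAXX term (1685 to 2293 at an unadjusted p under 0.05). A pseudocount of 10 left 4 calls, a minimum mean of 5 FPKM left 3, and with all 4 libraries a fit without the DAXX term left 19.

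**Figure D4:**
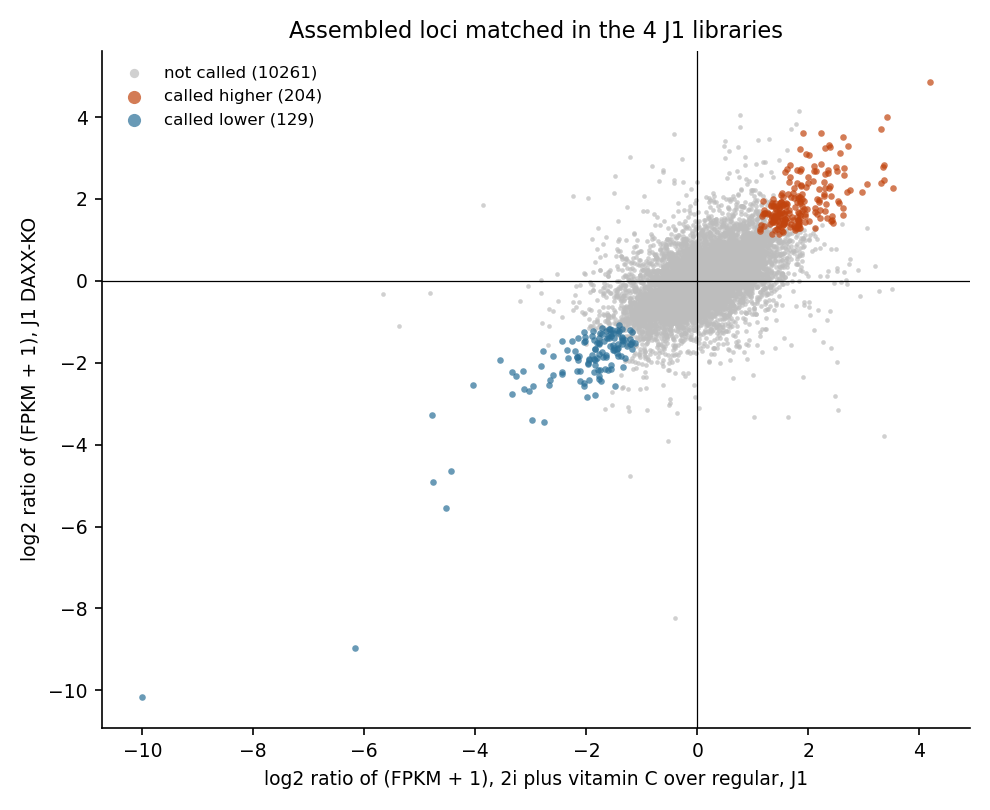
Each point is 1 assembled locus matched in the 4 J1 libraries, with the log2 ratio of (FPKM + 1) in 2i plus vitamin C to regular medium in J1 on the x axis and in J1 DAXX-KO on the y axis. The 204 loci called higher and 129 called lower lie in the quadrants where both lines moved the same way, which the test favours. At lower left, 2 loci fell by over 6 units in both lines.

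The largest rise among called loci was at chromosome 7 (mm9, 133766757 to 133769148), with 8.95 FPKM in regular and 182 in 2i medium in J1, and 4.02 and 146 FPKM in J1 DAXX-KO (log2 change 4.53 ± 0.24, limma adjusted p = 0.0179). The second was at chromosome 2 (mm9, 119176863 to 119180054), with 5.25, 65.5, 3.95 and 78.4 FPKM (log2 change 3.71 ± 0.24, limma adjusted p = 0.0315). In both, the 2i libraries lay far above the regular ones and the lines were alike. The largest falls were at 2 very short loci. A locus of 200 bp on chromosome 17 (mm9, 30532524 to 30532724) had 28968, 27.1, 85650 and 73.6 FPKM (log2 change −10.09 ± 0.30, limma adjusted p = 0.0034). The authors' bounds around its value in J1 regular were 12180 and 45756 FPKM. A locus of 147 bp on chromosome 15 (mm9, 93510293 to 93510440) had 253470, 3512, 646308 and 1285 FPKM (log2 change −7.57 ± 0.98, limma adjusted p = 0.0373). Of 213 tested loci that span under 500 bp, 3 (1.41%) were called higher and 8 (3.76%) lower, beside 1.93% and 1.22% of all loci. The part of the short span in these values was not tested. None of the 4 loci lay within 10 kb of a listed repeat element, and repeats under 5001 bp are not listed.

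Loci close to repeat elements were counted beside all loci, of which 1.93% were called higher and 1.22% lower. Of 95 tested loci within 10 kb of an IAPEz-int element none was called, with a median log2 change of 0.18, beside 0.06 over all loci. Of 114 near a MERVL-int element 1 was called lower and none higher, with a median of 0.16. Of 281 near an L1Md_T element 10 were called higher and 2 lower, which is 3.56% and 0.712%, and of 140 near an L1Md_A element 4 (2.86%) and none. These numbers are small, and no difference from the other loci was tested. For loci matched in all 8 libraries, no locus was called for a difference of the medium effect between TKO and J1 lines, 0% of 9658 (limma, 1365 at an unadjusted p under 0.05).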

How the data were processed

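RNA-seq libraries of 8 groups were grouped by their labels. The members and lists were chosen with earlier results of these data known. TopHat, Bowtie2 2.2.4, Cufflinks, Cuffdiff and mm9 are named in the submitters' processing notes, without roles. The repeat table deposited by the authors gives read counts and RPKM per element, per the file headers. The counter and the handling of reads that map to several copies are not given in the sources used here, so copies may share reads. The other files deposited by the authors give FPKM of assembled loci with confidence bounds.

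Totals were recovered from counts and RPKM, and recomputed RPKM lay within 0.011 for 100% of elements. All 778 elements on random scaffolds had 0 reads. edgeR 4.0.16 (R 4.3.3, quasi-likelihood) used these totals, 1 term per line, and a medium term each for J1 and TKO lines (2 residual degrees of freedom). The filters were a mean over all 8 libraries of 1 RPM for families and 0.1 RPKM for elements. Ratios of elements added 0.5 reads. Loci overlapped reciprocally by 50% and were fitted with limma 3.58.1 (DAXX and medium terms). All tests were two-sided, with p-values adjusted by Benjamini-Hochberg. P-values measure the spread between these pairs of libraries only, with the spread of each family, element or locus drawn toward that of the others. DESeq2 1.42.0, limma, scalings, filters and omitted libraries were alternatives.

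Named families were called ones with the same sign in both J1 pairs (up to 10 each way) and listed families with a mean of 50 RPM, 24 in all. Named elements were the 3, and loci the 2, largest called changes each way with the same sign in both pairs, outside 1 chromosome that is not reported here. Gene and marker lists were not analysed here: the files carry no gene names and the annotation given is GRCm38. Simulated data drew each family, element or locus independently, with no shift shared by a library and no link between copies. On such data, edgeR found 82 of 100 elements with a 4-fold change and 8 of 100 with a 2-fold change among 11322, with 6 false calls. It found 5 of 5 and 3 of 5 families among 44. limma found 100 of 100 and 54 of 100 loci among 10594, with 22 false calls. The false calls in simulated data do not give the rate of error in the libraries described here. Whether the deposited positions count from 0 or 1 is not stated.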

Additional observations from a re-analysis of the deposited data

Results flagged for a closer look

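The medium effect differed between TKO and J1 lines for 64 single elements in edgeR's contrast of the medium terms (adjusted p under 0.05), with 12 higher and 52 lower in TKO. None was called under TMM, median-of-ratios or LINE1 scaling (603, 651 and 646 at an unadjusted p under 0.05), in limma (2234) or without the pairing by line (44), and DESeq2 called 2. Without TKO regular the split was 45 higher and 17 lower.

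RLTR4_MM-int had ratios on opposite sides of 1 in the J1 lines. Its ratio of 2i plus vitamin C to regular medium was 1.38 in J1 and 0.553 in J1 DAXX-KO. The difference was not tested, since each line has 1 library in each medium.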

How the results depend on the processing

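Of the 24 named families, 379 of 406 values under the alternatives kept the direction, as did 99 of 99 for the 6 named elements and 42 of 42 for the 4 named loci. The named elements and loci, and the 6 called families, were chosen with the same sign in both J1 pairs. For these families and elements, leaving out 1 J1 library gives the change of the other J1 line, so the direction could not turn. Beside 6 called families, TMM and median-of-ratios scaling gave 0, LINE1 scaling 2, a 10 times higher minimum 2, DESeq2 8 and the J1 libraries alone 8. Leaving out 1 library gave 0 to 8. Beside 1485 called elements, TMM, median-of-ratios and LINE1 scaling gave 0, the J1 libraries alone 814, and leaving out 1 library 0 to 1186. Beside 64 elements for the difference of TKO and J1 lines, these scalings, limma and a 10 times higher minimum gave 0, DESeq2 2, no filter 43, and leaving out 1 library 0 to 3136. The difference over families stayed at 0 except for 1 with DESeq2. Beside 333 loci, a pseudocount of 10 gave 4, a minimum of 5 FPKM 3, an 80% overlap 681, and leaving out 1 library 0. Median scaling of loci gave 168 higher and 166 lower. Libraries were paired by line. Without this block 6 families, 30 elements, 0 elements for the difference and 19 loci were called. The cause of these changes was not tested.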

Other observations

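Some family values lie outside the comparisons above and were picked after they were seen. MuRRS-int, an ERV1 family below the level for naming, had 29.99 RPM in regular and 12.2 RPM in 2i medium in J1, and 11.8 and 16.7 RPM in J1 DAXX-KO, and was not called. The chromosome 10 copy of MMERGLN-int, at 30.04 RPKM in J1 DAXX-KO 2i, had 18.1 RPKM in TKO regular, 59.5 in TKO 2i, 13.5 in TKO DAXX-KO regular and 48.3 in TKO DAXX-KO 2i. Regular medium of the TKO lines thus already held more reads of this copy than J1 2i, which had 3.49 RPKM. The L1_Mus1 copy on chromosome 16 was also higher in 2i in the TKO lines, with 0.0853 and 0.722 RPKM in TKO and 0.111 and 0.774 in TKO DAXX-KO.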
